A study of Mus musculus with 6 samples.

Results

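The collagen gene family of the mouse tibia was examined in 6 polyA-selected RNA-seq libraries. Its members were the protein-coding genes in the GENCODE annotation of mouse genome build GRCm38 whose symbol is Col, a number, the letter a and a number, which gave 44 of the 55401 genes in the files. Of these 44 members, 42 had enough reads to be tested among 20636 genes, and the remaining members, *Col4a6* and *Col26a1*, had 20 reads or fewer in every library. Each library was made from pulverized whole tibia of a male mouse at 8 weeks of age. The 3 Atrx-cKO libraries came from *Osterix-Cre; Atrx*f/y mice and the 3 control libraries from *Atrx*f/y mice, so that both groups carried the floxed allele and the control mice had no Cre. ATRX is a chromatin remodeler that deposits a histone variant in repeats and other silent regions. The Cre line expresses a Tet-regulated Cre from the promoter of *Sp7* (Osterix), a transcription factor of osteoblast precursors, and doxycycline kept it silent in early life. No library had Cre with an intact *Atrx* allele, so Cre and the loss of *Atrx* cannot be told apart here. Outside these libraries, the paper compared tibias of mice with Cre and intact *Atrx* with floxed controls. It reports no significant difference in *Runx2*, *Col1a1* or *Ocn* (osteocalcin) expression. Bone matrix cells share these libraries with marrow, vessels, cartilage and adhering soft tissue, and in such bulk samples fewer cells of a type and less RNA per cell cannot be told apart.

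Collagens are proteins of 3 chains wound into a triple helix, and they are grouped by what the helices build. Fibrillar collagens form the banded fibers of bone, tendon and cartilage. In bone nearly all of the organic matrix is type I collagen, a trimer of *Col1a1* and *Col1a2* chains, and small amounts of type V and XI chains sit in the same fibrils and set their width. Fibril-associated collagens with interrupted helices (FACIT) coat the fibers, type IV forms the sheets of basement membranes, type VI forms beaded filaments around cells, and types II, IX, X and XI make up the collagens of cartilage. After synthesis the chains are hydroxylated, folded with the help of the chaperone encoded by *Serpinh1*, secreted, trimmed of their propeptides and crosslinked by lysyl oxidases.

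The libraries held 50977777 to 70571655 reads counted on genes, 42.8% to 43.8% of all reads counted. At these depths a count of 3 reads, the limit that a count of 0 allows, corresponds to 0.0425 to 0.0588 CPM, counting error only. CPM are read counts scaled to a common library total, and those below also carry edgeR's trimmed mean of M-values (TMM) factors. The targeted gene, *Atrx*, had 153, 166 and 171 CPM in the Atrx-cKO libraries and 174, 166 and 165 CPM in the control libraries, so its count over the whole gene in whole bone does not check the genotype labels. Osteoblast genes were abundant in every library (*Bglap*, osteocalcin, 1791 to 3017 CPM). The 11 listed chondrocyte markers summed to 94.6 to 177 CPM per library, and 1 of them, *Matn1*, stayed at or below 0.245 CPM. One control library, replicate 1, stood with the Atrx-cKO libraries for most bone collagens, and counts are given below with and without it.

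Promoter sequences of 4 members are shown because these genes stand for the patterns described below. *Col1a2* encodes a chain of the main bone collagen, *Col3a1* and *Col11a1* had the largest negative fold changes among fibrillar members, and *Col4a1* was nearly level over the control libraries. Each window runs from 250 bases before to 50 bases after the RefSeq start site, 5′ to 3′ on the strand of the gene (RefSeq, GRCm38.p6). Capitals mark exact matches, on either strand, to the motifs searched. These were the letters TATAAA for a TATA box, the letters CCAAT for a CCAAT box, and the letters GGGCGG for a GC box. The windows are chr1:45311288-45311587 on the plus strand for *Col3a1*, chr3:114030290-114030589 on the plus strand for *Col11a1*, chr6:4505368-4505667 on the plus strand for *Col1a2* and chr8:11312777-11313076 on the minus strand for *Col4a1*.
Col3a1: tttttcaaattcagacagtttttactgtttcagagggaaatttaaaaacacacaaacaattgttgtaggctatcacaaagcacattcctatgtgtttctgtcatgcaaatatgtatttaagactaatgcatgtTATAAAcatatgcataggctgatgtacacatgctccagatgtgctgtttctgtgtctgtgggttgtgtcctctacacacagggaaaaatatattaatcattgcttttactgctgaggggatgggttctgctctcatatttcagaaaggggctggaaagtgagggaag
Col11a1: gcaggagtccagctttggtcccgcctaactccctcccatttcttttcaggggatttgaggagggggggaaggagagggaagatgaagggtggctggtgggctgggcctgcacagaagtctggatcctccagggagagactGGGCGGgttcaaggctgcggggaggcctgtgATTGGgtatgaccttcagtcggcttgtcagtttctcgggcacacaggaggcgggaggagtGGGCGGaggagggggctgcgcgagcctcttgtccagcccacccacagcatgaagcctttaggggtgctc
Col1a2: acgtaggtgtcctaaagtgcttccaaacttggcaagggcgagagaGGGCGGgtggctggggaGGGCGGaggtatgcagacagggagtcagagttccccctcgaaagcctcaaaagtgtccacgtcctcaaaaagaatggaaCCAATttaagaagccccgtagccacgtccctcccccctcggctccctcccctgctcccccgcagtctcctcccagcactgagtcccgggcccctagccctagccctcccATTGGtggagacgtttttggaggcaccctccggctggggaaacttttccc
Col4a1: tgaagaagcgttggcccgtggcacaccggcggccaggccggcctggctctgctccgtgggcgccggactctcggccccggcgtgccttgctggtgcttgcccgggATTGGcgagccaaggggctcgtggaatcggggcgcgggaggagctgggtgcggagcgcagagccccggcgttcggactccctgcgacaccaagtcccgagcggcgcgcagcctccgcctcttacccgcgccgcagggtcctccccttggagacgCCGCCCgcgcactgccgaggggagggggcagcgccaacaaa

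The 4 windows differed in base composition, with 37.7% G and C in *Col3a1*, 62.3% in *Col11a1*, 61% in *Col1a2* and 74% in *Col4a1*. The *Col3a1* window held 1 TATA box, starting 117 bases before the start site, and neither of the other motifs. The *Col11a1* window held 1 CCAAT box on the reverse strand at position -79 and 2 GC boxes at -110 and -19. *Col1a2* had 2 CCAAT boxes, at -109 and, on the reverse strand, at 1, and 2 GC boxes at -205 and -188. *Col4a1* had 1 CCAAT box at -145 and 1 GC box at 10, both on the reverse strand, and its window shares 78 bases with that of *Col4a2*, which starts 21 bases away and runs the other way. Of the 44 members, 35 had windows in the RefSeq table, 38 windows in all. A GC box was present in 23 of the 38 and in 35.7% of all 32851 windows, a CCAAT box in 13 and in 37.4%, and a TATA box in 5 and in 13.6%. The core letters bound by RUNX factors (TGTGGT), the family of the osteoblast regulator *Runx2*, were present in 3 of the 38 windows and in 16.8% of all windows, and in none of the 4 shown.

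The family took up a large part of every library. Its 44 members held 12.7%, 13.1% and 13.3% of the reads on genes in the Atrx-cKO libraries, and 12.5%, 19.3% and 17.2% in the control libraries. The 3 Atrx-cKO libraries and control replicate 1 lay together, and control replicates 2 and 3 lay above them. *Col1a1* ranked 1 and *Col1a2* ranked 2 among all genes by reads in every library, and together they held 86.1% to 87.1% of the family's reads, so the type I share of the family was nearly the same in all 6 libraries. *Col1a1* alone held 5.86%, 5.98% and 5.95% of the reads on genes in Atrx-cKO and 5.62%, 8.73% and 7.72% in control.

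**Figure D1:**
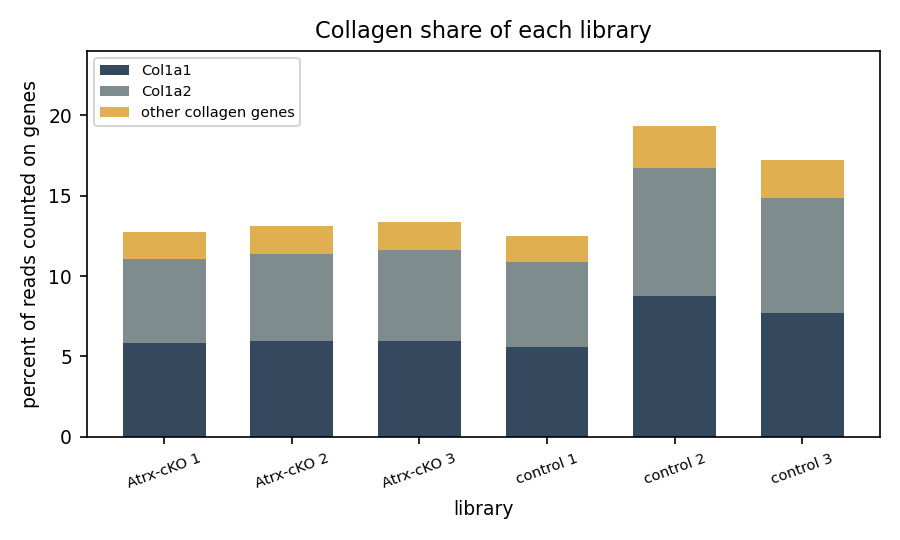
Stacked bars show, for each of the 6 libraries on the x axis, the percent of reads counted on genes (y axis) that fell on Col1a1, on Col1a2 and on the other 42 collagen genes. The bars of the 3 Atrx-cKO libraries and of control replicate 1 reach 12.5% to 13.3%, and those of control replicates 2 and 3 reach 19.3% and 17.2%.

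The comparison of Atrx-cKO with control asked whether collagen expression differed in bone whose osteoblast lineage had lost *Atrx*. No member passed an adjusted p of 0.05 in edgeR's quasi-likelihood test, in either direction, where the background over all 20636 genes was 0% called lower (0 genes) and 0.0145% called higher (3 genes, *Cartpt*, *Tcfl5* and *Lyrm4*). The lowest adjusted p among members was 0.992. DESeq2 called 0.0921% of genes lower and the same percent higher (19 genes each), and none of them was a collagen, the lowest adjusted p of a member being 0.296 for *Col3a1*. At an unadjusted edgeR p under 0.05, 8 of 42 members (19%) were lower in Atrx-cKO against 2.05% of all genes, and none was higher against 1.59% of all genes. Those 8 were *Col5a3*, *Col13a1*, *Col3a1*, *Col2a1*, *Col11a1*, *Col27a1*, *Col16a1* and *Col12a1*. With DESeq2, 14 members were lower at an unadjusted p under 0.05 (33.3%, against 2.66% of all genes) and 1, *Col8a1*, was higher (2.38%, against 1.68%). Fold changes below 0 were found for 23 of 42 members (54.8%), against 48.8% of all genes. The median log2 fold change was -0.18 over the 42 members and 0.0050 over all genes tested.

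Type I collagen, the scaffold that mineral is laid on, had lower mean levels in Atrx-cKO, but the groups overlapped. *Col1a1* (ENSMUSG00000001506, chr11:94936224-94953042, plus strand) had 58165, 57837 and 57564 CPM in Atrx-cKO and 53548, 92517 and 82629 CPM in control. The Atrx-cKO libraries were close to each other (57855 ± 300 CPM, SD, n = 3) and the control libraries were not (76231 ± 20257 CPM, SD, n = 3), with control replicate 1 below every Atrx-cKO library. The log2 fold change was -0.40 ± 0.21 (SE), with a 95% interval from -0.89 to 0.09 and an edgeR adjusted p of 0.992. *Col1a2* (ENSMUSG00000029661, chr6:4504814-4541544, plus strand) had 51748, 51821 and 54581 CPM in Atrx-cKO and 50187, 84667 and 76365 CPM in control, again with control replicate 1 lowest and control replicates 2 and 3 highest. Its log2 fold change was -0.42 ± 0.21 (SE). Without control replicate 2 the log2 fold changes were -0.23 for *Col1a1* and -0.26 for *Col1a2*, and without control replicate 1 they were -0.60 and -0.61. For Atrx-cKO tibias the paper reports, by RT-qPCR, upward trends of *Col1a1*, *Runx2* and *Ocn* relative to control. The fold changes of *Col1a1*, *Runx2* and *Bglap* (osteocalcin) in these libraries were negative, and the cause of this difference was not tested.

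The summed markers of osteoblasts, the cells that make most of this collagen, were also highest in control replicates 2 and 3. So was each marker except *Bglap2* and *Spp1*. *Bglap2* had 803 CPM in control replicate 3 and 1000 CPM in Atrx-cKO replicate 3. *Spp1* had 2803 CPM in control replicate 2 and 3054 CPM in Atrx-cKO replicate 3. All 9 markers on a list chosen with earlier results of these data known had negative fold changes, where 48.8% of all genes did. Of the 9, 2 had an unadjusted edgeR p under 0.05 (*Ibsp*, bone sialoprotein, and *Phospho1*, a phosphatase of mineralization) and none passed adjustment. At that level 2.05% of all genes were lower. Their summed level was 7708, 8076 and 9504 CPM in Atrx-cKO and 7569, 11170 and 10846 CPM in control. *Col1a1* per unit of that sum was 7.55, 7.16 and 6.06 in Atrx-cKO and 7.07, 8.28 and 7.62 in control, overlapping between the groups. With the log2 sum as a covariate, an alternative added after seeing the data, the log2 fold change of *Col1a1* was -0.13 ± 0.13 (SE) and that of *Col1a2* -0.16 ± 0.11 (SE).

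Among the minor fibrillar chains, *Col3a1*, *Col11a1*, *Col11a2* and *Col5a2* were also highest in control replicates 2 and 3, with fold changes from -0.36 to -0.68. *Col3a1* (chr1:45311538-45349706, plus strand), the chain of type III collagen of soft tissue and vessel walls, had 1386, 1368 and 1105 CPM in Atrx-cKO and 1335, 2260 and 2602 CPM in control. Its log2 fold change was -0.68 ± 0.24 (SE), with an interval from -1.24 to -0.13 and an unadjusted p of 0.022 (edgeR quasi-likelihood test). Control replicate 1 again lay among the Atrx-cKO libraries. *Col11a1* (chr3:114030540-114220718, plus strand), a type XI chain found in cartilage and in bone fibrils, had 2610, 2898 and 3086 CPM in Atrx-cKO and 2904, 5784 and 4875 CPM in control, a log2 fold change of -0.66 ± 0.24 (SE). Its unadjusted edgeR p was 0.025. Per unit of the osteoblast marker sum *Col11a1* was 0.339, 0.359 and 0.325 in Atrx-cKO and 0.384, 0.518 and 0.449 in control, without overlap, and with that sum as a covariate its log2 fold change was -0.30 ± 0.12 (SE, edgeR adjusted p = 1.0). Its partner *Col11a2* had 3080, 3719 and 4005 CPM in Atrx-cKO and 3223, 5519 and 5078 CPM in control, with a log2 fold change of -0.36 ± 0.21 (SE). *Col5a2*, a type V chain, had 2416, 3097 and 2619 CPM in Atrx-cKO and 2383, 5506 and 4480 CPM in control, with a log2 fold change of -0.61 ± 0.28 (SE). Per unit of the osteoblast marker sum *Col5a2* was 0.313, 0.383 and 0.276 in Atrx-cKO and 0.315, 0.493 and 0.413 in control, with overlap. The groups also overlapped for *Col2a1* per unit of that sum.

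The remaining type V chains differed from *Col5a2*. *Col5a1* had 1208, 1090 and 1006 CPM in Atrx-cKO and 780, 1161 and 1249 CPM in control, so the groups overlapped on both sides. It was the only one of the 11 fibrillar members with a positive fold change (0.05, 95% interval from -0.37 to 0.47), and its sign turned without control replicate 1 (-0.13) and without Atrx-cKO replicate 1 (-0.021). *Col5a3* had 48.7, 47.0 and 48.2 CPM in Atrx-cKO and 57.8, 55.4 and 76.0 CPM in control. Here every Atrx-cKO library lay below every control library, the log2 fold change was -0.39 ± 0.12 (SE), and the unadjusted edgeR p of 0.013 was the lowest of the family.

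*Col27a1*, a fibrillar chain of developing cartilage, was the other member whose groups did not overlap, with 42.1, 52.8 and 52.4 CPM in Atrx-cKO and 54.3, 64.2 and 83.6 CPM in control. These 2 members are 4.76% of the 42, where 4.01% of all genes had every Atrx-cKO library below every control library. No member had the groups apart in the other direction, where 4.3% of all genes did. *Col24a1*, a fibrillar chain of bone, had 149, 191 and 203 CPM in Atrx-cKO and 163, 300 and 279 CPM in control, with control replicate 1 within the Atrx-cKO range. Its log2 fold change was -0.45 ± 0.23 (SE). Over the 11 fibrillar members, 10 fold changes were negative, where 48.8% of all genes were, 5 had an unadjusted p under 0.05, where 2.05% of all genes were lower at that level, and the median was -0.45 on the log2 scale.

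**Figure D2:**
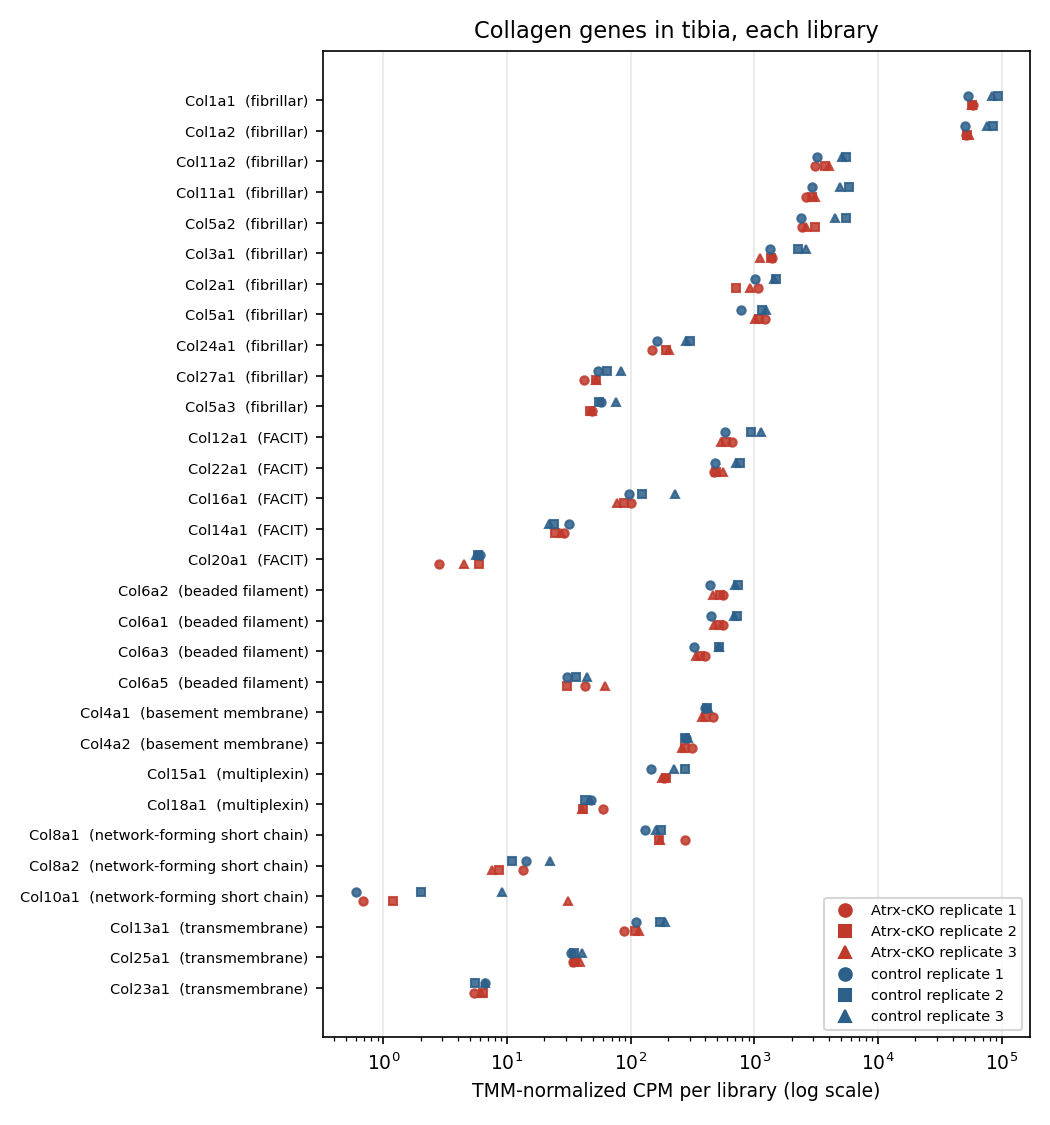
Each row is a collagen gene with a mean of at least 5 CPM over the 6 libraries, and the x axis gives its TMM-normalized CPM on a log scale. Each point is 1 library, red for Atrx-cKO and blue for control, and in most fibrillar rows the blue circle of control replicate 1 lies with the red points while the other blue points lie to the right.

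Tendon and fibroblast markers, listed because these cells express *Col3a1*, *Col12a1* and the type VI chains, had lower fold changes as well. All 9 were negative, 3 of them at an unadjusted p under 0.05 (*Postn*, *Dpt* and *Tnmd*), and none passed adjustment. Of all genes tested, 48.8% had negative fold changes and 2.05% were lower at that level in edgeR. Their summed level was 781, 758 and 696 CPM in Atrx-cKO and 782, 1008 and 1420 CPM in control, so that the groups did not overlap by a margin of about 1 CPM. *Col3a1* per unit of that sum was 1.77, 1.81 and 1.59 in Atrx-cKO and 1.71, 2.24 and 1.83 in control, overlapping between the groups. Skeletal muscle markers summed to 11422 CPM in control replicate 3 and to 687 to 2385 CPM in the other 5 libraries. With the muscle sum as a covariate the log2 fold change was -0.36 for *Col1a1*, -0.56 for *Col3a1*, -0.43 for *Col12a1* and -0.48 for *Col16a1*, where it was -0.40, -0.68, -0.56 and -0.75 without the covariate.

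FACIT collagens did not share a direction. *Col12a1*, which coats type I fibers, had 653, 588 and 541 CPM in Atrx-cKO and 584, 931 and 1121 CPM in control, a log2 fold change of -0.56 ± 0.22 (SE) with an unadjusted edgeR p of 0.036. *Col22a1*, known from tissue junctions, had 471, 493 and 558 CPM in Atrx-cKO and 478, 772 and 716 CPM in control, with a log2 fold change of -0.37 ± 0.18 (SE). For both, control replicate 1 lay among the Atrx-cKO libraries. *Col16a1* had 100, 88.9 and 77.2 CPM in Atrx-cKO and 97.6, 123 and 227 CPM in control. It had the most negative fold change of the family (-0.75 ± 0.29, SE), about which control replicate 3 mattered most, since without it the value was -0.32. *Col14a1*, a fibril-bound collagen of tendon and skin, had 28.6, 24.5 and 27.5 CPM in Atrx-cKO and 31.9, 23.8 and 21.7 CPM in control, overlapping, with a 95% interval of the log2 difference from -0.29 to 0.41. *Col20a1* had 2.82, 5.95 and 4.50 CPM in Atrx-cKO and 6.03, 5.79 and 5.61 CPM in control, also overlapping. *Col19a1* had at most 22 reads in a library. Of the 9 FACIT members, 4 had negative and 5 positive fold changes, with a median of 0.0092 that lay between -0.44 without Atrx-cKO replicate 3 and 0.11 without Atrx-cKO replicate 2.

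The cartilage collagens split by how much of their message the whole bone carried. *Col2a1*, the main fibrillar collagen of cartilage, had 1074, 706 and 924 CPM in Atrx-cKO and 1018, 1504 and 1452 CPM in control, with a log2 fold change of -0.56 ± 0.20 (SE) and an unadjusted edgeR p of 0.025. It followed the bone collagens, since control replicate 1 lay within the Atrx-cKO range. The type IX chains, which decorate type II fibers, were lower by far. *Col9a1* had 2.51, 2.10 and 9.68 CPM in Atrx-cKO and 0.876, 1.10 and 6.30 CPM in control. *Col9a2* had 1.35, 1.26 and 5.60 CPM in Atrx-cKO and 1.07, 1.62 and 5.52 CPM in control. *Col9a3* had 2.38, 2.28 and 6.30 CPM in Atrx-cKO and 1.35, 1.77 and 3.72 CPM in control. All 3 were highest in replicate 3 of each genotype, and none of their log2 fold changes (0.80, 0.0092 and 0.69) was distinguishable from 0.

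*Col10a1*, the short-chain collagen of hypertrophic chondrocytes, varied most of all. It had 0.684, 1.19 and 31.3 CPM in Atrx-cKO and 0.596, 2.03 and 9.14 CPM in control, again highest in replicate 3 of each genotype. Its log2 fold change of 1.51 had a 95% interval from -1.85 to 4.87 and became -2.05 without Atrx-cKO replicate 3. That library decided the sign of *Col9a1* and *Col9a2* too, which became -0.24 and -1.05 without it. The 11 listed chondrocyte markers summed to 120, 109 and 120 CPM in Atrx-cKO and 94.6, 99.2 and 177 CPM in control. *Acan*, aggrecan, had 21.5, 27.0 and 25.9 CPM in Atrx-cKO and 17.6, 43.9 and 56.1 CPM in control. The marker sum, most of which is *Comp*, *Acan* and *Chad*, was not raised in Atrx-cKO replicate 3. Some less abundant markers on the list were raised in that library. *Matn3*, a cartilage matrilin, had 0.376, 0.193 and 2.27 CPM in Atrx-cKO and 0.0701, 0.315 and 1.91 CPM in control. *Cnmd*, chondromodulin, had 0.308, 0.525 and 2.78 CPM in Atrx-cKO and 0.386, 0.315 and 1.66 CPM in control. Like the type IX and X chains, both were highest in replicate 3 of each genotype, and these 2 were chosen after their values were seen. On the same list *Matn1* and *Epyc*, at or below 0.245 CPM, were not highest in replicate 3 of either genotype. The *Col9a3* gene overlaps the exons of *Tcfl5* on the opposite strand over 234 bases (6.07% of its exonic bases), and *Tcfl5* had 6.40, 7.39 and 8.0 CPM in Atrx-cKO against 0.316, 0.345 and 0.777 CPM in control (edgeR adjusted p = 0.039). Reads counted as lying on more than 1 gene, 0.644% to 0.701% of all reads counted, are in the count of neither gene. Whether the counting used the strand was not given in the sources used here, so reads of the shared stretch cannot be assigned to either gene with certainty.

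**Figure D3:**
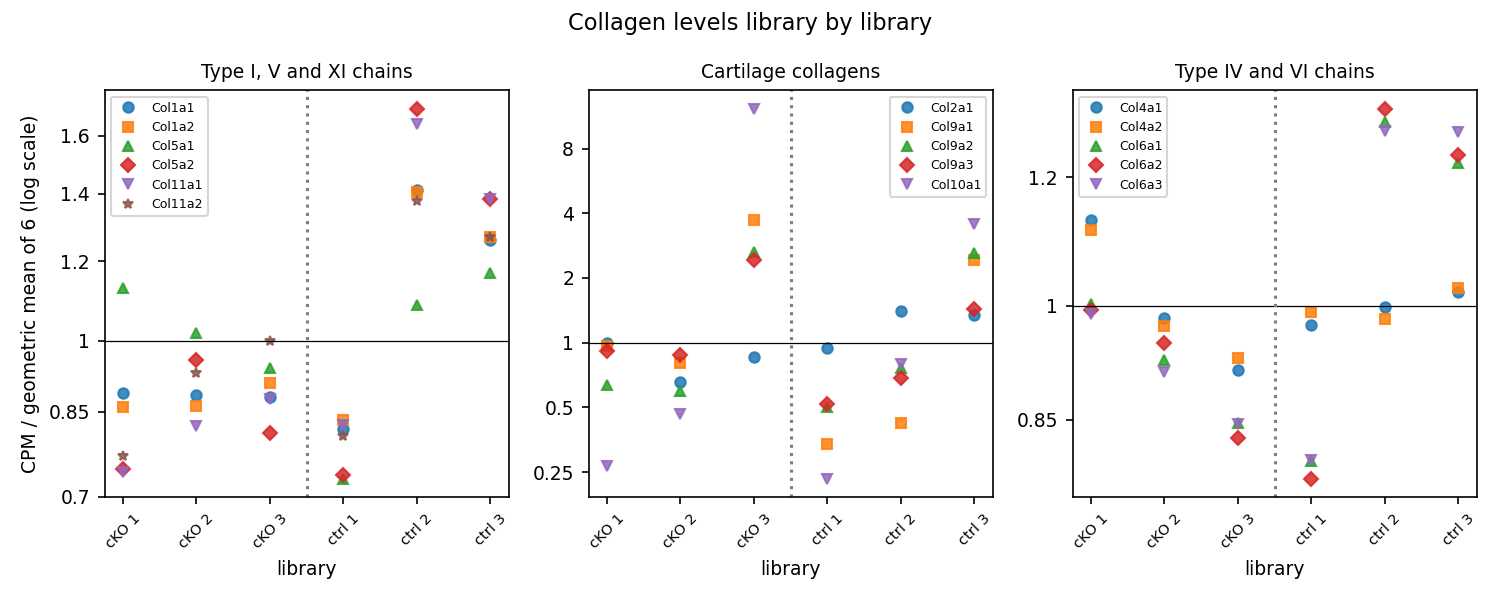
The y axes give CPM divided by the geometric mean of the gene's 6 libraries, on log scales that differ between panels, and the x axes give the 6 libraries, with a dotted line between Atrx-cKO and control. The type I and XI chains and Col5a2 are highest in control replicates 2 and 3, the type IX and X chains are highest in replicate 3 of each genotype, and Col4a1 and Col4a2 stay near 1 while the type VI chains are lowest in control replicate 1.

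Basement membrane collagen did not show the high values of control replicates 2 and 3 seen for the bone collagens. *Col4a1* (ENSMUSG00000031502, chr8:11198423-11312826, minus strand), a chain of the type IV network under endothelium and around other cells, had 464, 404 and 375 CPM in Atrx-cKO and 400, 410 and 419 CPM in control. *Col4a2*, which starts head to head with it and whose exons overlap it by 22 bases, had 313, 273 and 261 CPM in Atrx-cKO and 278, 276 and 288 CPM in control. For both genes the Atrx-cKO range enclosed the control range. The 95% intervals of the log2 difference ran from -0.22 to 0.26 for *Col4a1* and from -0.21 to 0.23 for *Col4a2*, the narrowest of the 42 members together with that of *Col25a1*. Control replicate 1 did not stand apart for either gene. *Col4a3*, *Col4a4* and *Col4a5*, the chains of specialized membranes such as that of the kidney glomerulus, had between 0.0855 and 1.13 CPM, and *Col4a6* had at most 0.351 CPM. The 5 tested members had a median log2 fold change of 0.025. Endothelial markers, for comparison, summed to 1183, 1217 and 1182 CPM in Atrx-cKO and 1238, 991 and 1011 CPM in control. Positive fold changes were found for 9 of 9, 2 of them at an unadjusted edgeR p under 0.05 and none after adjustment. At that level 1.59% of all genes were higher.

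The multiplexins, basement membrane proteoglycans with collagen domains, were a pair with different patterns over the libraries. *Col15a1* had 186, 192 and 179 CPM in Atrx-cKO and 146, 277 and 225 CPM in control, lowest in control replicate 1 and highest in the other control libraries, with a log2 fold change of -0.22 ± 0.21 (SE). *Col18a1*, the source of endostatin, had 60.1, 40.8 and 40.3 CPM in Atrx-cKO and 47.4, 42.7 and 46.6 CPM in control, with an interval of the log2 difference from -0.32 to 0.41.

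**Figure D4:**
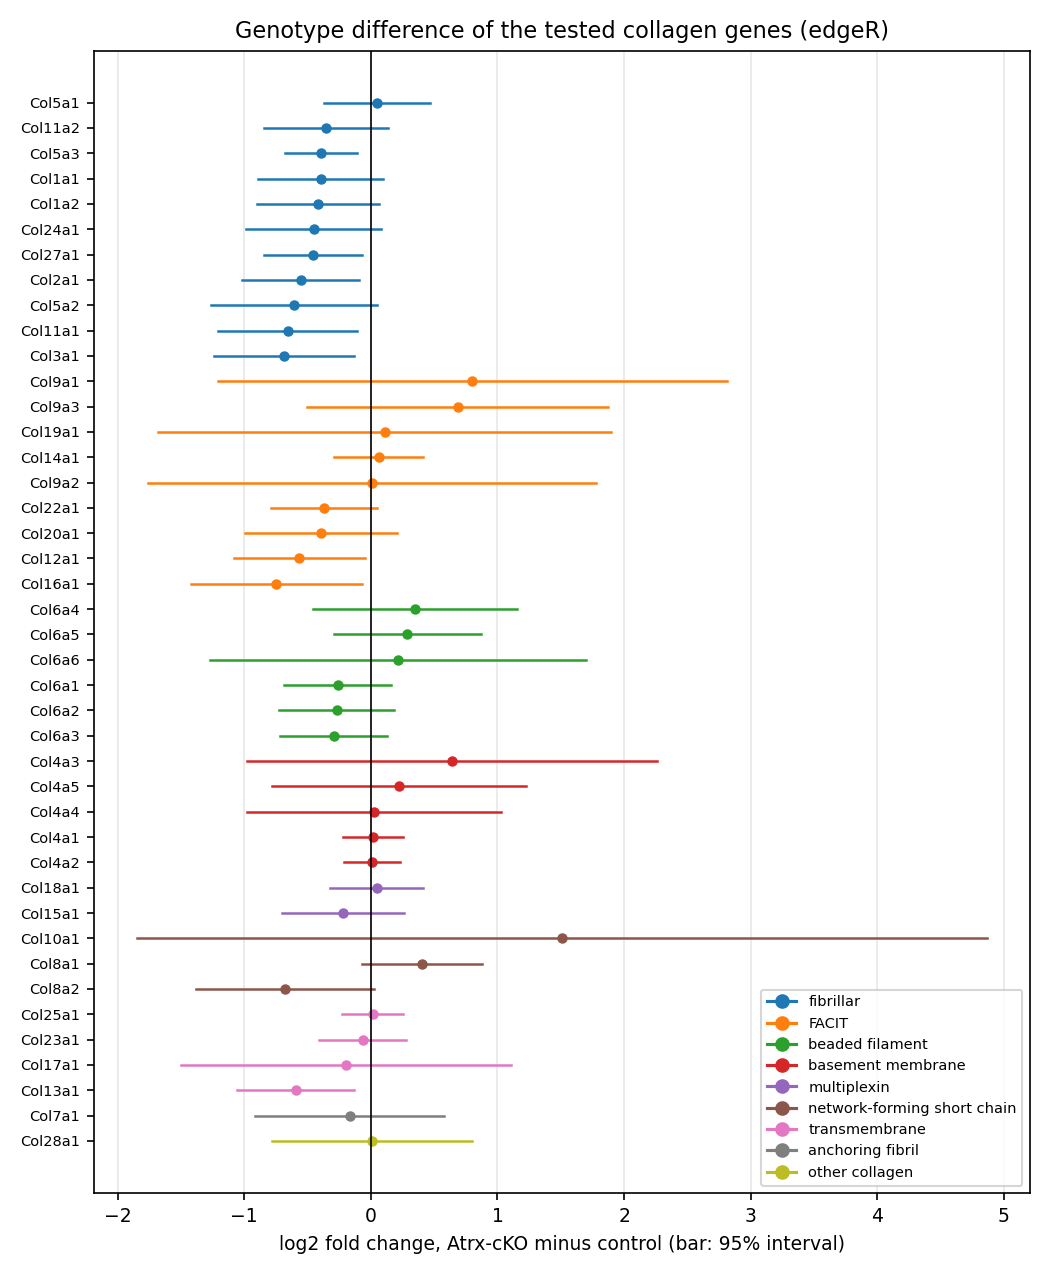
Each point is the log2 fold change (Atrx-cKO minus control, edgeR) of 1 of the 42 tested collagen genes, grouped and colored by class, and each bar is its 95% interval. Of the 11 fibrillar points 10 lie below 0, those of Col4a1 and Col4a2 lie at 0.02 and 0.01 with short bars, and Col10a1 has the longest bar, from -1.85 to 4.87.

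Type VI chains, which form beaded filaments around cells of muscle, tendon, marrow and bone, moved as a set across libraries. *Col6a1* had 559, 516 and 472 CPM in Atrx-cKO and 447, 724 and 683 CPM in control. *Col6a2* had 556, 531 and 463 CPM in Atrx-cKO and 437, 740 and 693 CPM in control. *Col6a3* had 397, 366 and 340 CPM in Atrx-cKO and 323, 515 and 515 CPM in control. For all 3 chains control replicate 1 was the lowest of the 6 libraries and control replicates 2 and 3 were the highest, with log2 fold changes of -0.26, -0.27 and -0.29. *Col6a5* had 42.8, 30.5 and 61.8 CPM in Atrx-cKO and 30.5, 36.2 and 43.9 CPM in control, overlapping, while *Col6a4* and *Col6a6* stayed between 0.123 and 2.02 CPM.

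The short-chain network collagens pointed in different directions. *Col8a1*, a collagen of vessel walls and of the membrane under corneal endothelium, had 273, 170 and 171 CPM in Atrx-cKO and 130, 175 and 160 CPM in control, a log2 fold change of 0.40 ± 0.20 (SE) carried mainly by Atrx-cKO replicate 1. *Col8a2* had 13.4, 8.58 and 7.57 CPM in Atrx-cKO and 14.1, 11.0 and 22.2 CPM in control, a log2 fold change of -0.68 ± 0.30 (SE). Without Atrx-cKO replicate 1 the value for *Col8a1* was 0.14. Among transmembrane collagens, which are anchored in the cell surface, *Col13a1* had 89.0, 108 and 116 CPM in Atrx-cKO and 111, 171 and 191 CPM in control. Its log2 fold change was -0.60 ± 0.20 (SE), with an unadjusted edgeR p of 0.019. *Col25a1* had 34.2, 35.3 and 39.2 CPM in Atrx-cKO and 32.9, 34.5 and 40.2 CPM in control, nearly equal, with an interval from -0.23 to 0.26. *Col23a1* had 5.39, 6.41 and 6.16 CPM in Atrx-cKO and 6.61, 5.55 and 6.62 CPM in control. *Col17a1*, the hemidesmosome collagen of skin, had at most 0.473 CPM. *Col7a1*, which builds the anchoring fibrils of skin, had 3.03 to 6.81 CPM, *Col28a1* had 0.911 to 1.83 CPM, and *Col26a1* had 1 to 16 reads per library.

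Control replicate 1 decided how many collagens DESeq2 called, but not how many edgeR called. Without it, edgeR called no member lower at an adjusted p under 0.05 (0% of all genes), but 18 of 42 members (42.9%) had an unadjusted p under 0.05, against 5.59% of all genes. DESeq2 without it called 17 of 42 members lower (40.5%), against 1.59% of all genes, and none higher, against 1.06% of all genes. These 17 were *Col1a1*, *Col1a2*, *Col2a1*, *Col3a1*, *Col5a2*, *Col11a1*, *Col11a2*, *Col24a1*, *Col27a1*, *Col12a1*, *Col16a1*, *Col22a1*, *Col6a1*, *Col6a2*, *Col6a3*, *Col15a1* and *Col13a1*. In that fit the log2 fold change was -0.60 for *Col1a1* (DESeq2 adjusted p = 2.29e-08), -0.61 for *Col1a2* (2.17e-08), -0.92 for *Col3a1* (1.73e-08) and -0.89 for *Col11a1* (2.39e-09). *Col4a1* and *Col4a2* were at 0.00 with an adjusted p of 1 and 0.998. The library was left out after the data were seen, and nothing in the labels sets it apart, so these calls describe how the result depends on 1 library. Leaving out any other library gave no called member with either tool.

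Ratios between chains within a library do not depend on the scaling between libraries, apart from the 0.5 CPM added to each value, and they were compared for 12 pairs as CPM per kb of exon. With 3 libraries against 3, the smallest two-sided p of the exact permutation test is 0.1. *Col1a1* to *Col1a2* was 2.13, 2.11 and 2.0 in Atrx-cKO and 2.02, 2.07 and 2.05 in control, so the 2 chains of type I collagen kept their proportion in all libraries while their levels varied. The value itself depends on the length used, since the median over the 6 libraries was 2.06 per kb of all annotated exons and 0.981 per kb of the principal transcript. The ratio of *Col4a1* to *Col4a2* lay between 1.27 and 1.32 and that of *Col6a1* to *Col6a2* between 1.85 and 1.94. *Col6a3* to *Col6a1* lay between 0.260 and 0.276. The genotype differences of these 4 log2 ratios were 0.023, 0.0072, 0.0045 and -0.031, with overlapping groups.

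In 4 of the 12 pairs the groups did not overlap, each with an exact p of 0.1 and an adjusted p of 0.3 over the 12 pairs. Some chains are in several pairs, so the pairs are not independent, and pairs of other genes were not compared. *Col5a1* to *Col5a2* was 0.565, 0.398 and 0.434 in Atrx-cKO and 0.370, 0.238 and 0.315 in control, a difference of 0.60 on the log2 scale. *Col9a1* to *Col9a2* was 0.994, 0.902 and 1.02 in Atrx-cKO and 0.536, 0.459 and 0.689 in control, a log2 difference of 0.81, although the levels of both chains varied several-fold within each genotype. Those ratios rest on 1 to 10 CPM per chain. *Col11a1* to *Col11a2* was 0.457, 0.420 and 0.416 in Atrx-cKO and 0.486, 0.565 and 0.518 in control, and *Col3a1* to *Col1a1* was 0.0159, 0.0158 and 0.0128 in Atrx-cKO and 0.0167, 0.0163 and 0.0211 in control. The log2 differences of the last 2 pairs were -0.28 and -0.27, and for *Col3a1* to *Col1a1* the lowest control ratio lay just above the highest Atrx-cKO ratio. None of the 4 passed adjustment. The other 4 pairs overlapped. *Col10a1* to *Col2a1* spanned 32.0-fold over the 6 libraries, from 0.00318 to 0.102.

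**Figure D5:**
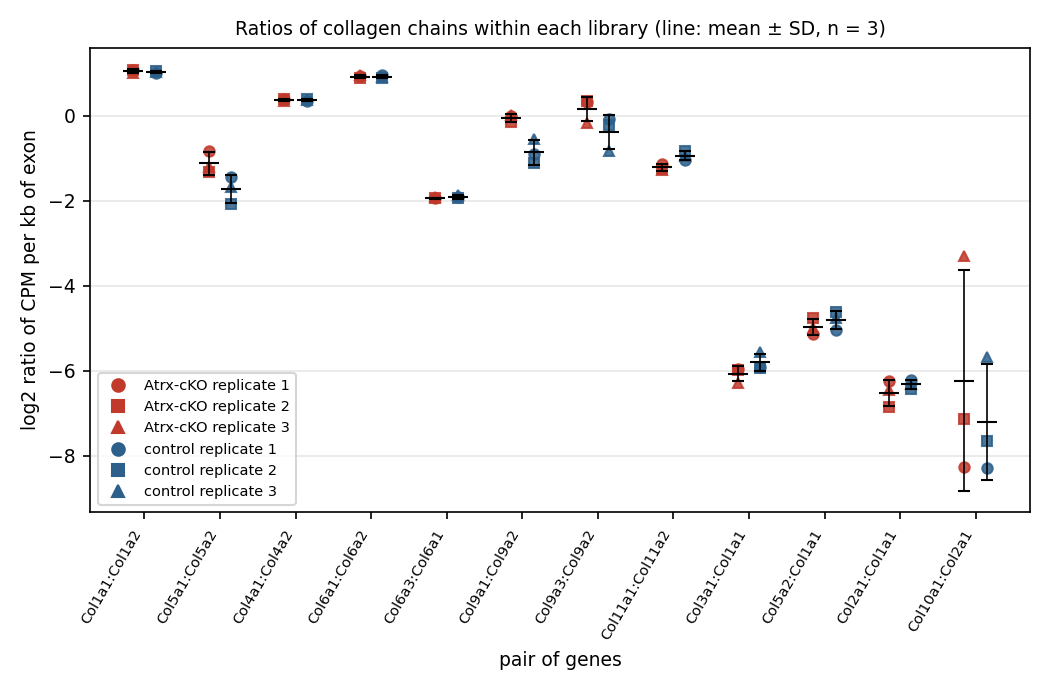
The y axis gives the log2 ratio of CPM per kb of exon within a library and the x axis the 12 pairs of genes, with red points for Atrx-cKO, blue for control, a shape per replicate, and lines for mean ± SD (n = 3). Col1a1:Col1a2, Col4a1:Col4a2, Col6a1:Col6a2 and Col6a3:Col6a1 are tight and overlap between groups, Col5a1:Col5a2 and Col9a1:Col9a2 are apart, and Col10a1:Col2a1 has the widest spread.

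Collagen genes that lie next to each other were compared for shared direction. *Col3a1* and *Col5a2*, tail to tail on chromosome 1 with 24614 bases between them, had log2 fold changes of -0.68 and -0.61. *Col4a1* and *Col4a2*, head to head on chromosome 8, had 0.02 and 0.01. *Col6a2* and *Col6a1*, 85161 bases apart on chromosome 10, had -0.27 and -0.26. *Col4a4* and *Col4a3*, head to head on chromosome 1 with 71 bases between them, had 0.02 and 0.64 at levels of about 1 CPM or less. None of these genes passed the test.

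The genes that process collagen were taken from 6 lists, and none of their members passed an adjusted p of 0.05 in edgeR or in DESeq2. Of all genes tested, 48.8% had negative fold changes and 2.05% were lower at an unadjusted edgeR p under 0.05. Of 14 enzymes of chain hydroxylation and glycosylation, 12 had negative fold changes and 1 of these an unadjusted p under 0.05. That was *P4ha3*, a prolyl hydroxylase subunit, with 3.59, 2.29 and 2.34 CPM in Atrx-cKO and 3.26, 5.24 and 9.83 CPM in control (log2 fold change -1.15). *Plod1*, a lysyl hydroxylase, had a log2 fold change of -0.19, and *P4ha1*, the main prolyl hydroxylase subunit, had 155, 196 and 149 CPM in Atrx-cKO and 139, 198 and 182 CPM in control. Of 14 folding and export genes, 12 had negative fold changes. *Serpinh1*, the collagen chaperone, had 1270, 1435 and 1252 CPM in Atrx-cKO and 1193, 1912 and 1634 CPM in control, again lowest in control replicate 1. *Sparc*, osteonectin, had 15689, 16725 and 17660 CPM in Atrx-cKO and 15088, 24683 and 23411 CPM in control, with the same lowest library. *Hspa5*, a general chaperone of the endoplasmic reticulum, had a positive fold change (0.35 ± 0.17, SE).

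Propeptide removal, crosslinking, receptors and breakdown gave similar counts. Of 9 genes of propeptide removal 7 had negative fold changes, with *Bmp1*, the C-propeptide protease, at -0.19 and *Furin*, which activates such proteases, at -0.09. Of the 5 lysyl oxidases 4 were negative. *Loxl2* had 231, 292 and 305 CPM in Atrx-cKO and 310, 685 and 552 CPM in control, without overlap, a log2 fold change of -0.90 ± 0.27 (SE) with an unadjusted edgeR p of 0.011. *Lox*, the main crosslinking oxidase, had 746, 831 and 880 CPM in Atrx-cKO and 743, 1288 and 1219 CPM in control, and *Loxl4* had a log2 fold change of -0.40. Of 12 receptors 7 were negative. *Oscar*, a collagen receptor of osteoclasts, had 11.6, 13.3 and 14.7 CPM in Atrx-cKO and 16.9, 15.5 and 19.3 CPM in control, without overlap (log2 fold change -0.38), and *Mrc2*, which takes up collagen fragments, was at -0.28. Of 8 breakdown genes 7 were negative. *Mmp14*, a membrane collagenase, had 424, 406 and 449 CPM in Atrx-cKO and 437, 590 and 625 CPM in control (-0.37), and *Mmp2*, a gelatinase, was at -0.32. *Mmp13*, the collagenase of hypertrophic cartilage and bone, had 783, 595 and 832 CPM in Atrx-cKO and 741, 978 and 1480 CPM in control. *Ctsk*, the collagen-degrading protease of osteoclasts, had 702, 612 and 868 CPM in Atrx-cKO and 922, 719 and 1360 CPM in control. The medians of the 6 lists lay between -0.40 and -0.033 on the log2 scale, against 0.0050 over all genes tested. With library size alone as the scaling, the median of all genes was 0.0768, and 6633 of all 20636 genes had negative fold changes. The negative counts were then 8 of 14, 10 of 14, 6 of 9, 4 of 5, 4 of 12 and 6 of 8 in the order above. The receptors thus leaned to positive values under that scaling, as all genes did.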

How the data were processed

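Libraries from pulverized tibia were made with polyA selection by the authors, who deposited 1 table per library of raw counts, the whole number of reads assigned to each Ensembl gene. The submitters' processing notes name GRCm38 and DESeq2, and the aligner and counter are not given in the sources used here. Of 55401 identifiers, 55141 were named from GENCODE. The 4 rows for reads on no gene, on more than 1 gene or not placed uniquely were left out of library sizes, and 51.6% to 52.4% of reads were on no feature. Low-count genes were removed with filterByExpr, and genotype was tested with edgeR 4.0.16 (quasi-likelihood, TMM) in R 4.3.3 over all 20636 genes, with Benjamini-Hochberg adjustment. Log2 fold changes are Atrx-cKO minus control. DESeq2 1.42.0 was the alternative test. Chain ratios were compared by exact two-sided permutation, and the p-values were adjusted over the 12 pairs with scipy 1.17.1.

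The collagen genes, their classes and the other gene lists were chosen with earlier results of these data known. Values in every library are given for members with a mean of at least 5 CPM, for cartilage members and for the lowest p-values. The chi-square per degree of freedom between replicates was 17.1 to 151.6, so no library was a copy of another. The labels number the replicates without naming animals, so p-values measure the spread between these libraries.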

Additional observations from a re-analysis of the deposited data

How the results depend on the processing

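Of the 42 collagen genes tested, none was called under any alternative that kept all 6 libraries (other normalizations, other filters, DESeq2, the replicate block and the muscle, chondrocyte and osteoblast covariates), and none was called in edgeR without any 1 library. DESeq2 without 1 library, a set of fits added after seeing the data, called 0 to 17 collagens lower, the 17 without control replicate 1. Over all genes, where a log2 fold change of at least 1 was also required, edgeR called 3 higher and 0 lower. The count of higher genes was 1 with at least 10 counts required in every library and 10 with DESeq2. It was 0 with the replicate block and 0 with the osteoblast covariate. Without 1 library it ranged from 0 to 5 in edgeR and from 8 to 27 in DESeq2. The count of lower genes was 1 with no filter and 13 with DESeq2. Without 1 library it ranged from 0 to 1 in edgeR and from 6 to 53 in DESeq2. The cause of these differences was not tested.

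The direction of a fold change turned mainly for genes near 0 or with few reads. With the osteoblast covariate it was -0.0641 for *Col14a1*, 0.0737 for *Col15a1*, 0.0221 for *Col17a1*, -0.0552 for *Col18a1*, -0.00817 for *Col4a1* and -0.0209 for *Col4a2*. With the muscle covariate it was -0.21 for *Col19a1*, -0.16 for *Col4a4* and 0.0457 for *Col7a1*, and with library size alone 0.00700 for *Col23a1*. Without 1 library, in edgeR and DESeq2 together, the log2 fold changes ranged from -2.06 to 3.07 for *Col10a1*, -0.0627 to 0.24 for *Col14a1*, -0.44 to 0.00351 for *Col15a1*, -0.87 to 0.16 for *Col17a1*, -0.17 to 0.14 for *Col18a1*, -0.79 to 0.61 for *Col19a1*, -0.14 to 0.00991 for *Col23a1*, -0.0491 to 0.0958 for *Col25a1*, -0.18 to 0.34 for *Col28a1*, -0.0736 to 0.0808 for *Col4a1*, -0.0736 to 0.059 for *Col4a2*, -0.33 to 0.44 for *Col4a4*, -0.0991 to 0.55 for *Col4a5*, -0.13 to 0.17 for *Col5a1*, -0.0125 to 0.50 for *Col6a5*, -0.36 to 0.58 for *Col6a6*, -0.40 to 0.20 for *Col7a1*, -0.25 to 2.26 for *Col9a1* and -1.06 to 1.02 for *Col9a2*. The log2 chain ratio differences that turned ranged from -0.49 to 1.99 for *Col10a1* to *Col2a1*, -0.00419 to 0.0218 for *Col4a1* to *Col4a2* and -0.00943 to 0.0238 for *Col6a1* to *Col6a2*. Without 1 library the FACIT median ranged from -0.45 to 0.12. The class medians of the beaded filament, short-chain network and transmembrane collagens moved by more than the spread between replicates without 1 library, from -0.31 to 0.0944, from -0.52 to 0.51 and from -0.38 to 0.0336.

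The labels do not say whether the replicate numbers pair the libraries, and correlations between libraries cannot decide it. The correlations of the deviations of same-numbered libraries from their group means were -0.00315, 0.108 and -0.0996. Those of differently numbered libraries ran from -0.143 to 0.108. With the replicate block, *Col19a1* was at -0.12 and *Col9a2* at -0.00432, and no collagen was called.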

Other observations

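Other cells of the bone were followed through marker lists that the text above does not use. All 7 osteoclast markers had negative fold changes, none of them at an unadjusted p under 0.05 in edgeR, with sums of 2424, 1998 and 2728 CPM in Atrx-cKO and 3118, 2289 and 3775 CPM in control. Osteocyte markers summed to 1107 to 1259 CPM in Atrx-cKO and 1255 to 1369 CPM in control, with 4 of 6 fold changes negative. All 6 erythroid and all 7 neutrophil markers had positive fold changes, none at an unadjusted edgeR p under 0.05. Of all 20636 genes tested, 10064 had negative and 10572 positive fold changes. Erythroid sums were 4528, 3489 and 3992 CPM in Atrx-cKO and 5744, 2232 and 2762 CPM in control. Neutrophil sums were 12510, 9157 and 8841 CPM in Atrx-cKO and 10418, 8688 and 7267 CPM in control. Both sums were lower in control replicates 2 and 3, the 2 control libraries with the larger collagen share, than in control replicate 1. Adipocyte markers summed to 165 to 263 CPM and markers of Schwann cells and nerve to 100 to 124 CPM over the 6 libraries, with the groups overlapping.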
